A study of Mus musculus with 6 samples.

Results

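Sox2 and Pou5f1 encode a pair of transcription factors that hold mouse embryonic stem cells in the pluripotent state, and the contacts of both genes with the surrounding 1 Mb of chromatin were read from Hi-C maps. The genes were chosen by name, as 2 of 20665 autosomal protein-coding genes of the annotation. Their windows, the gene's 50 kb bin with every bin within 1 Mb on either side, held 82 of 47875 autosomal bins with contacts. The maps came from in-situ Hi-C, in which crosslinked chromatin is cut with MboI and ligated inside the nucleus, so that each ligated read pair counts as a contact between a pair of DNA stretches. Del8 denotes 3 libraries of strain 129 cells labelled GFP-CTCF-Del8, which express a GFP fusion of CTCF from which zinc finger 8 is missing. WT denotes 3 libraries of strain 129 cells labelled wild type, whereas the series' design text describes the comparison line as expressing GFP-CTCF. The WT cells may therefore carry the same tag, which the labels do not settle, and whether either line is a single clone is not stated in the labels. The design text calls the replicates biological. Hi-C holds no RNA, so neither the loss of the zinc finger nor the stem cell state could be checked against expression.

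CTCF binds DNA through its zinc fingers and halts the extrusion of chromatin loops by cohesin, and stretches of chromatin between such sites contact themselves more than their neighbours. Sox2 stands nearly alone in a gene desert, and in mouse embryonic stem cells its transcription depends on a distal control region, an enhancer cluster about 100 kb above the gene. Pou5f1, which encodes Oct4, lies among the class I genes of the major histocompatibility complex and carries its known enhancers within a few kilobases of its start.

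The positions of both genes relative to the bins decide what the maps can show, and their promoters are given for that reason (GRCm38.p6, the mm10 assembly, RefSeq). Sox2 occupies chromosome 3 from 34649995 to 34652461. Its first 6 bases fall at the top of the bin 34600001 to 34650000 and the other 2461 in the bin 34650001 to 34700000, called the Sox2 bin here. Pou5f1 occupies chromosome 17 from 35506032 to 35510777, wholly inside the bin 35500001 to 35550000, where Tcf19, Cchcr1, Psors1c2 and Cdsn also start. In the Sox2 promoter below (chr3:34649745-34650044, plus strand) capitals mark the 44 bases that belong to the Sox2 bin. In the Pou5f1 promoter (chr17:35505782-35506081, plus strand) they mark a GC box and a reversed CCAAT box.
Sox2 promoter: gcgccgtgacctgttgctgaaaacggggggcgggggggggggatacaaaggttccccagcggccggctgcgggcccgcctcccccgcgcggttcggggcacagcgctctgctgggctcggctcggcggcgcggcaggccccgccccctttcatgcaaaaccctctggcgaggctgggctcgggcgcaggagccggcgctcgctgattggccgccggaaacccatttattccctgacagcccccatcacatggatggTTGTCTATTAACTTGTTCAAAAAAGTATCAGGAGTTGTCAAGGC
Pou5f1 promoter: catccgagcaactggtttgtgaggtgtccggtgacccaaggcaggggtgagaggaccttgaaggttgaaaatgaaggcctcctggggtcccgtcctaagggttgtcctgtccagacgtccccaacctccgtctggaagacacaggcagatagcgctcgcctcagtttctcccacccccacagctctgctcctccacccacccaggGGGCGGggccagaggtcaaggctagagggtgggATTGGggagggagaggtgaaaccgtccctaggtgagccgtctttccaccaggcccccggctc
These windows were searched on both strands for a core of the CTCF motif (CC, 3 bases of any kind, AG, 2 of any kind and GGC), the octamer (ATGCAAAT), the CCAAT box (CCAAT) and the GC box (GGGCGG). The Sox2 window held 1 CTCF core on the minus strand, at bases 62 to 73, where 8.61% of 32851 promoters held at least 1 match. It also held a CCAAT box on the minus strand and GC boxes at bases 28 to 33 and, on the minus strand, 140 to 145. The Pou5f1 window held no match to the CTCF core. RefSeq lists another Pou5f1 promoter inside the gene and the same bin (chr17:35508557-35508856, plus strand), which held a CCAAT box on the plus strand at bases 83 to 87 and no match to the CTCF core or the GC box. None of the 3 windows held the octamer, which was found in 1.74% of promoters. The CCAAT box was found in 37.4% and the GC box in 35.7% of promoters. At 50 kb no bin resolves a site, so these matches describe the sequence alone.

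The libraries were unequal in depth and in the regions they covered. Total contacts ranged from 38088173 to 66266759 in Del8 and from 24038030 to 36233407 in WT. Coverage was low in 1.74% to 13.3% of bins in the 3 Del8 libraries, against 39.2%, 39.5% and 2.86% in WT replicates 1 to 3. WT replicates 1 and 2 also stood apart in the coverage of the bins that were kept for tests. Chi-square per degree of freedom was taken on the total contacts of each of these bins. It was 1.81 to 2.08 among the Del8 libraries and 2.80 to 3.22 between WT replicate 3 and them. For every pair with WT replicate 1 or 2 it was 4.73 to 6.59. As deposited, contacts within a single bin made up 26.4% to 26.6% in Del8, against 31.2%, 30.7% and 22.3% in WT replicates 1 to 3. The within-bin total of every library was even, as was every within-bin count near both genes. Each such contact may therefore have been counted 2 times, which was not tested. In that case these shares and the total contacts are overstated, and the chi-square values are affected too. Tests were kept to 27804 bins (58.1%) that were covered comparably in all libraries. Near Sox2, 36 of 41 bins were usable and 33 had an insulation score. Near Pou5f1, 40 of 41 were usable and scored. The one that was lost, 35450001 to 35500000 with H2-Q10, adjoins the Pou5f1 bin. It held 1858, 1315 and 1132 contacts in Del8 replicates 1 to 3, against 199, 279 and 1025 in WT replicates 1 to 3. Where a bin is lost in WT replicates 1 and 2, the part of coverage in a difference between the groups was not tested.

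Insulation around each gene was described by a score per bin, the log2 of the mean balanced contact between the 500 kb below and the 500 kb above the bin over the mean of the chromosome, so that a lower score means fewer contacts across the bin. Scores differed between Del8 and WT in many places of the genome. Of 22021 scored bins 32.5% rose in Del8 and 30.4% fell (limma, adjusted p under 0.05), with a median difference of 0.0017, and the groups did not overlap in 67.2%. Near Sox2 they did not overlap in 26 of 33 bins and near Pou5f1 in 20 of 40. Neighbouring bins share most of their squares, so counts of bins below are not counts of independent events.

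**Figure D1:**
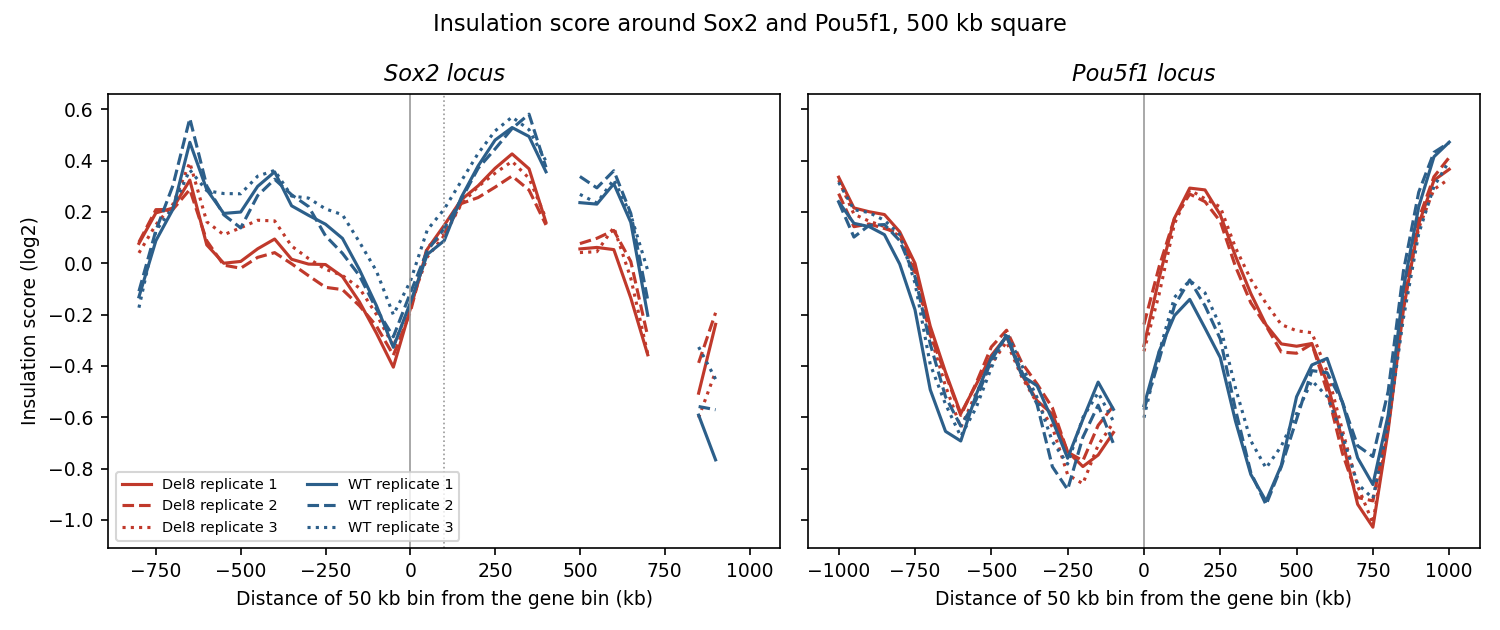
Insulation score (log2, vertical axis) of each 50 kb bin against its distance from the gene bin (kb, horizontal axis), 1 line per library, Del8 in red and WT in blue, with the solid grey line at the gene bin, the dotted grey line at the Sox2 control region bin and gaps at bins without a score. Around Sox2 both groups share a dip 50 kb below the gene, whereas 400 kb above Pou5f1 the mean is -0.21 in Del8 and -0.89, a dip, in WT.

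At the Pou5f1 bin contact across the gene rose in Del8. The score was -0.32, -0.24 and -0.34 in Del8 replicates 1 to 3, against -0.55, -0.57 and -0.60 in WT replicates 1 to 3. Every Del8 library lay above every WT library. The means were -0.30 ± 0.06 in Del8 and -0.58 ± 0.02 in WT (SD, n = 3 each), a difference of 0.27 on the log2 scale (SE 0.03, limma, adjusted p = 3.12e-05) or 1.21-fold the relative contact across the bin. The rise was not confined to the gene. All 12 bins from 35500001 to 36100000 rose, by 0.12 to 0.68, and they made up most of the 14 bins that rose among the 40 scored near Pou5f1 (35.0%, close to the 32.5% of all scored bins). The others were 5 bins that fell (12.5%, against 30.4% of all scored bins) and 21 that did not pass. The median difference over the 40 was 0.04.

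The largest rise lay 400 kb above the gene, in the bin 35900001 to 35950000, where Mrps18b, a protein of the mitochondrial ribosome, and Ppp1r10, a regulatory subunit of protein phosphatase 1, start. Its score was -0.24, -0.24 and -0.16 in Del8, against -0.93, -0.94 and -0.80 in WT. This was the deepest point of the WT profile between Pou5f1 and the next boundary, and the Del8 libraries were far above it. The means of -0.21 ± 0.05 in Del8 and -0.89 ± 0.08 in WT differed by 0.68 (SE 0.04, limma, adjusted p = 3.45e-07), which is 1.60-fold the relative contact across the bin. With a 500 kb square the profile had a boundary in this bin (a local minimum with a prominence of 0.2 or more) in 0 of 3 Del8 libraries and in 3 of 3 WT libraries. With a 250 kb square a minimum lay within 1 bin of it in all 6 libraries, and the score there still differed by 0.68 (adjusted p = 3.17e-05).

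The next largest rises were the adjoining bins on the side of Pou5f1. The bin 35850001 to 35900000 holds the starts of 5 genes, among them Nrm, a protein of the inner nuclear membrane, Dhx16, a splicing helicase, and Atat1, the tubulin acetyltransferase. It scored -0.11 ± 0.05 in Del8 and -0.78 ± 0.07 in WT, a difference of 0.67. The bin 35800001 to 35850000 holds Ier3, Flot1, the tubulin gene Tubb5 and Mdc1, a mediator of the DNA damage response. It scored 0.03 ± 0.04 in Del8 and -0.56 ± 0.07 in WT, a difference of 0.58 (limma, adjusted p = 3.16e-07 and 4.40e-07). All 3 rises and that of the Pou5f1 bin kept their direction and passed with both other squares, with a screen at 0.25 in place of 0.5, with centring, with the replicate block and with any library left out. Without WT replicates 1 and 2 together, which leaves 1 WT library, they were 0.58, 0.58 and 0.51 in the order given. At the Pou5f1 bin the rise was then 0.30.

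Other boundaries near Pou5f1 moved little or the other way. The lowest scores of the window in every Del8 library and in WT replicate 3 were at 36250001 to 36300000, with Rpp21, a subunit of ribonuclease P, Trim39 and H2-M10.2. In WT replicates 1 and 2 the bin 400 kb above Pou5f1 was lower still. The bin 36250001 to 36300000 was a boundary in all 6 libraries, at -1.03, -0.93 and -1.01 in Del8 and -0.86, -0.75 and -0.92 in WT. It fell by 0.15 (SE 0.04, limma, adjusted p = 0.0111), with no overlap between the groups. The call ended with a screen at 0.25 (-0.06, adjusted p = 0.263), and the sign turned with a 1 Mb square (0.08). Without WT replicates 1 and 2, which leaves 1 WT library, the difference shrank to -0.07. The boundary at 34900001 to 34950000, with the choline transporter-like gene Slc44a4 and the sialidase gene Neu1, was called in all 6 libraries. Its score was -0.61 ± 0.03 in Del8 and -0.67 ± 0.03 in WT and the difference did not pass (0.06, limma, adjusted p = 0.0902).

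Below Pou5f1 the minimum stood in a different bin in each group. The bin 35300001 to 35350000, with H2-Q1 and H2-Q2, was the minimum in 3 of 3 Del8 libraries and in 0 of 3 WT libraries. The bin before, 35250001 to 35300000 with H2-D1, was the minimum in 0 of 3 Del8 libraries and in 3 of 3 WT libraries. Scores at H2-Q1 and H2-Q2 were -0.79, -0.77 and -0.86 in Del8, against -0.61, -0.68 and -0.60 in WT (difference -0.18, SE 0.03, limma, adjusted p = 0.000747). The bin of H2-Q4 beside it differed by -0.19 (adjusted p = 0.000814), while that of H2-D1 did not pass (0.04, adjusted p = 0.338). These falls were no longer called with a screen at 0.25 in place of 0.5 (-0.12 and -0.14, adjusted p = 0.0951 and 0.0721). H2 genes are members of a family of near-identical copies, and how reads shared between copies were handled is not given in the sources used here.

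Taken as blocks of bins, contacts of the Pou5f1 bin itself with the chromatin above the WT dip were higher in Del8. None of its 25 tested single pairs was called. Counted together, contacts of the Pou5f1 bin with the 6 bins from 35950001 to 36250000 were 206, 120 and 111 in Del8, against 44, 54 and 53 in WT. As observed over expected balanced contact, where 1 is the mean of pairs at the same distance on the chromosome, this was 1.16, 1.01 and 1.02 in Del8, against 0.780, 0.812 and 0.555 in WT. Every value of Del8 exceeded every value of WT, and the mean was 1.49-fold that of WT (1.06 ± 0.08 in Del8, 0.715 ± 0.14 in WT). With the 7 bins between the gene and the dip, which include those of Ddr1, a collagen receptor, and Tubb5, the values were 1.25 ± 0.06 in Del8 and 1.22 ± 0.03 in WT and overlapped. With the 10 bins below, 9 of them usable, they were 0.730 ± 0.01 in Del8 and 0.861 ± 0.06 in WT, without overlap. That last separation held for balanced values alone, since before balancing the values were 0.838, 0.777 and 0.822 in Del8, against 0.825, 0.833 and 0.971 in WT. These blocks were drawn after the profiles had been seen, those above the dip share contacts with the score that chose it, and they carry no test.

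**Figure D2:**
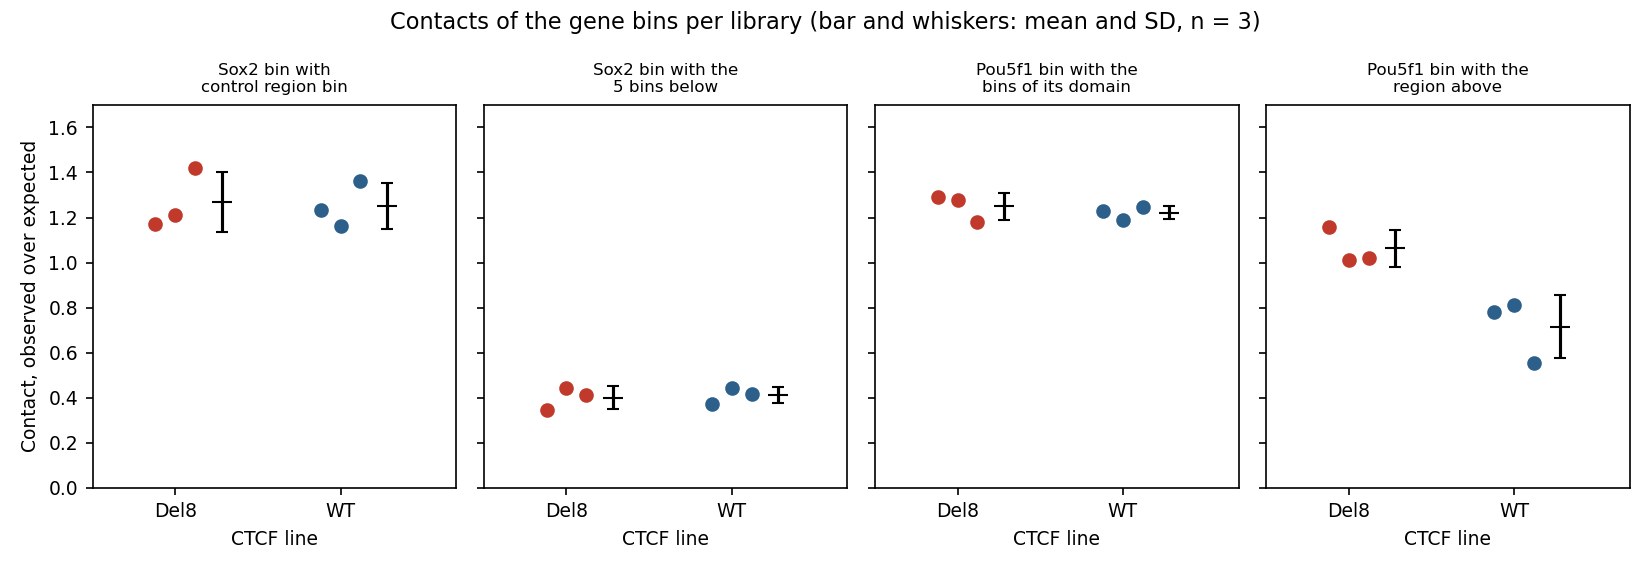
Observed over expected balanced contact (vertical axis) of the Sox2 bin with its control region bin and with the 5 bins below it, and of the Pou5f1 bin with the 7 bins between it and the WT dip and with the 6 bins above the dip, for Del8 and WT (horizontal axis). Points are libraries, bars and whiskers the mean and SD (n = 3), and only in the last panel do the groups not overlap, at 1.06 in Del8 and 0.715 in WT.

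The contacts behind the score of the dip were those across it, and their counts are given as a description, not as further support for a rise that chose them. Pairs joining the 8 bins from 35500001 to 35900000 with the 6 bins above the dip held 2080, 1419 and 1323 contacts in Del8, against 472, 543 and 709 in WT. Observed over expected contact was 0.861, 0.859 and 0.916 in Del8, against 0.512, 0.543 and 0.583 in WT, a ratio of 1.61. The lowest Del8 library was well above the highest WT library. Within the 8 bins it was 1.17 ± 0.02 in Del8 and 1.20 ± 0.04 in WT and overlapped, whereas before balancing it was 1.64, 1.55 and 1.57 in Del8, against 1.46, 1.47 and 1.54 in WT. Within the 6 bins above it was 1.11 ± 0.03 in Del8 and 1.19 ± 0.02 in WT without overlap.

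Of the Pou5f1 window's 571 pairs of usable bins up to 1 Mb apart, 358 had a mean count of 10 or more and were tested against the expected contact of their chromosome and distance. Since the Del8 libraries were deeper, 63 of them met this filter through their Del8 counts alone, and 295 had a mean of 10 or more in both groups. Of the 295, 13 rose in Del8 (4.41%) and 0 fell (edgeR, adjusted p under 0.05), where 0.752% of 265012 such pairs in the genome rose and 0.974% fell. The 63 added 5 rises, which the filter favoured, so that 18 of the 358 rose (5.03%) and 0 fell. DESeq2 also called no fall. Over the genome 0.905% of 324754 tested pairs rose and 0.826% fell, 1.73% in all. At an unadjusted p under 0.05 (edgeR) 77 of the 358 rose and 9 fell, a cut at which no share of the genome was taken. Pairs with the dip between their bins overlap the square whose score chose the dip, so their values carry no test of their own. Of the 30 such pairs with a mean of 10 or more in both groups 4 rose, 29 lay above 0 and the median difference was 0.64 on the log2 scale. The other 265 gave 9 rises and had a median of 0.04. The number of rises among the 358 depended on the tool and libraries. DESeq2 called 1. The number was 4 to 8 without any 1 of WT replicates 1 and 2 or Del8 replicates 1 to 3. Without WT replicates 1 and 2 together 1 WT library is left, so no count is given.

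**Figure D3:**
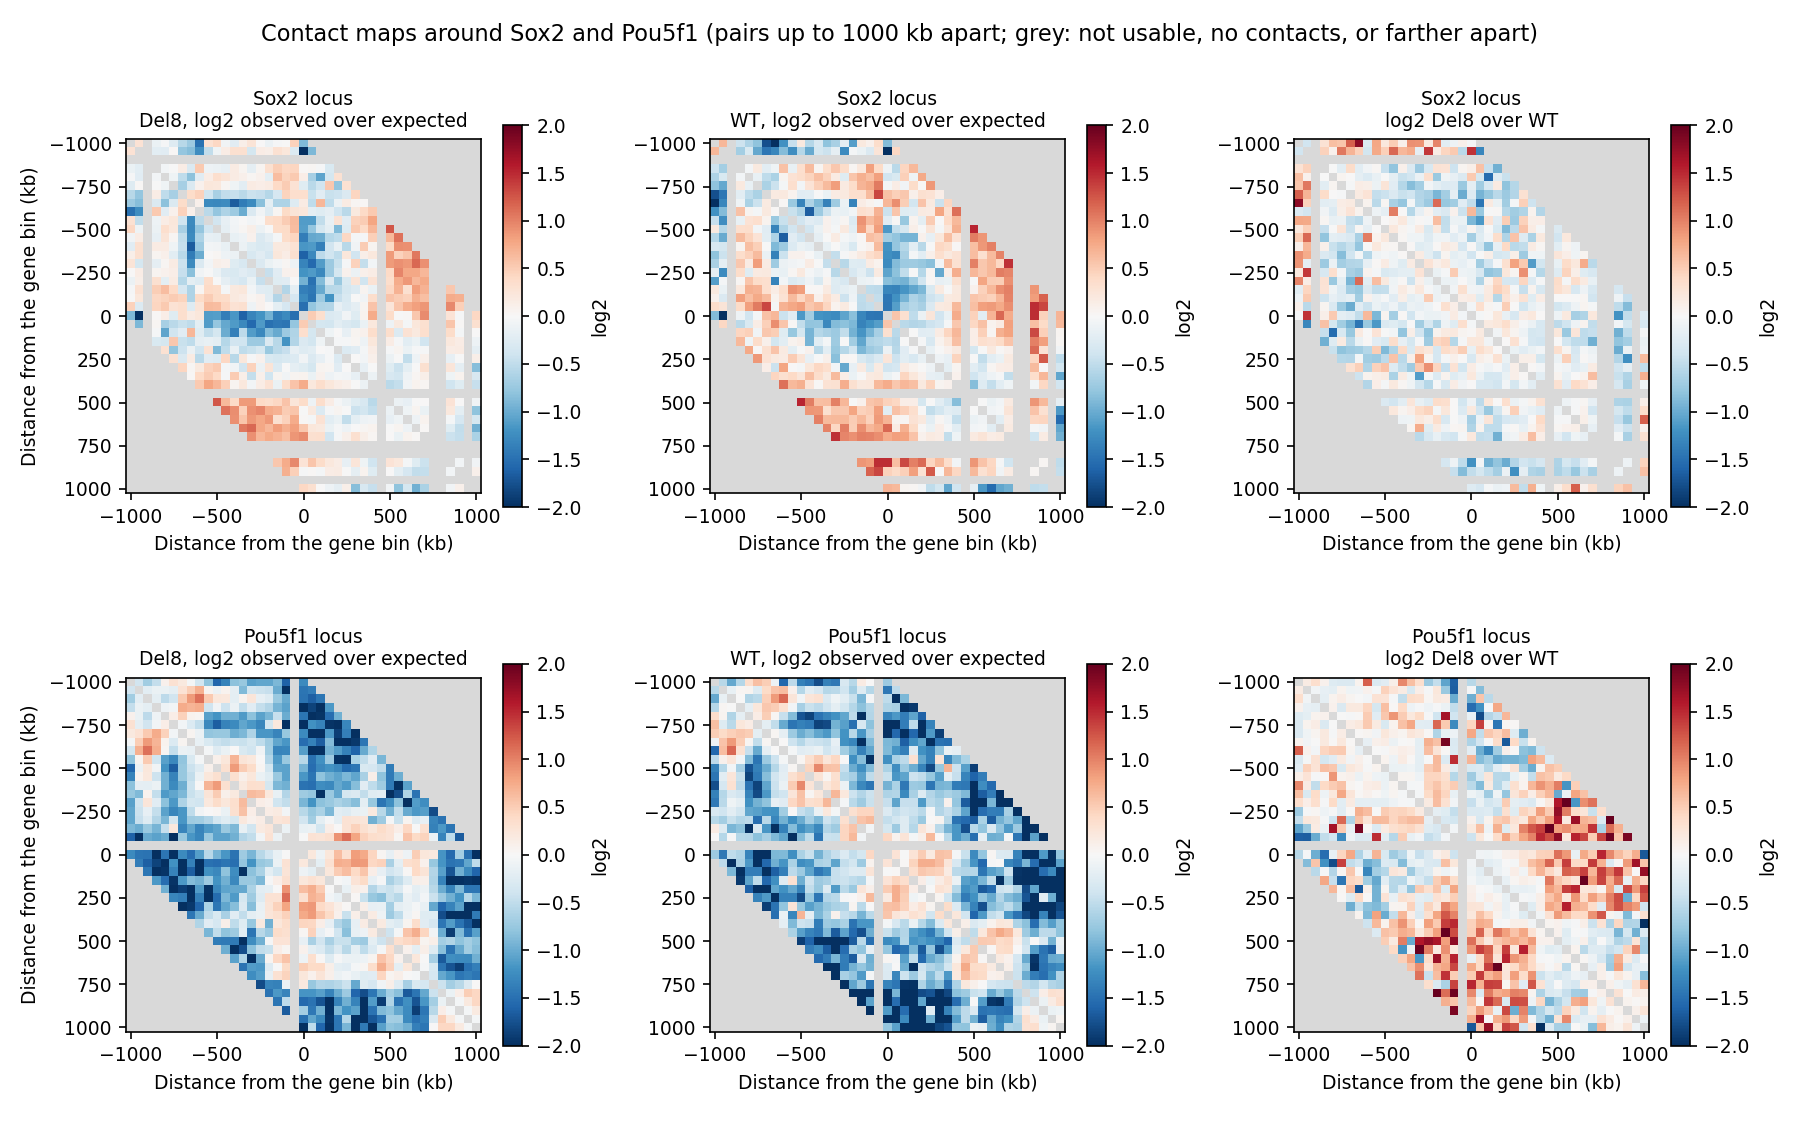
Contact maps of the Sox2 (top) and Pou5f1 (bottom) windows, with the distance of each bin from the gene bin (kb) on both axes and log2 observed over expected contact in colour, as the mean of 3 Del8 libraries (left), the mean of 3 WT libraries (middle) and log2 Del8 over WT (right). Pairs across the WT dip 400 kb above Pou5f1 are red in the right panel, as the choice of the dip by its rise in score implies, with 29 of the 30 that had a mean count of 10 or more in both groups above 0.

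The 3 largest rises were all among the 5 pairs that met the filter through their Del8 counts alone. The first joined the bin of Vars2, Gtf2h4 and Ddr1 (35650001 to 35700000) with that of H2-T3 (36150001 to 36200000), a class I-like gene, 500 kb apart. It held 33, 29 and 29 contacts in Del8, against 2, 3 and 8 in WT (log2 fold change 1.96, SE 0.42, edgeR, adjusted p = 0.00264). The bin of Ier3, Flot1, Tubb5 and Mdc1 and that of Gm11127 (36050001 to 36100000) held 39, 25 and 38 contacts in Del8, against 3, 3 and 15 in WT (1.58, adjusted p = 0.00766). The bin 35700001 to 35750000, with no gene start, and that of Gm7030, Gm10499, Gm8909 and H2-T-ps (36100001 to 36150000) held 37, 20 and 25 contacts in Del8, against 5, 3 and 10 in WT (1.40, adjusted p = 0.0404). In each, the raw count of every Del8 library exceeded that of every WT library. The filter, the choice of the largest rises and the greater depth of Del8 all favoured this, so it adds no support. Without WT replicates 1 and 2, which leaves 1 WT library, the log2 fold changes were smaller, at 1.33, 0.67 and 0.90. With single libraries left out the first always passed, the second did not without WT replicate 1 (adjusted p = 0.0751), WT replicate 2 (0.0949) or Del8 replicate 3 (0.0943), and the last passed only without WT replicate 3.

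For pairs with the Pou5f1 bin, 25 of 39 were tested and none was called (edgeR, and 0 with DESeq2). At an unadjusted p under 0.05 (edgeR) 8 rose and 0 fell. Of these rises, those 500 kb or more from the gene met the count filter through their Del8 counts alone. No share of the genome was taken at this cut. The smallest adjusted p, 0.054, belonged to the pair with the bin of Rpp21, Trim39 and H2-M10.2, 750 kb above, at 28, 22 and 12 contacts in Del8, against 5, 2 and 4 in WT (log2 fold change 1.62, SE 0.48). With the bin of Tubb5, 300 kb above, there were 141, 105 and 75 contacts in Del8, against 43, 39 and 58 in WT (0.45, SE 0.17, edgeR, adjusted p = 0.15). With the adjoining bin of 2300002M23Rik there were 344, 212 and 194 in Del8, against 128, 157 and 161 in WT (0.08, SE 0.11, adjusted p = 0.78). Of the Pou5f1 bin's raw contacts within 1 Mb, 72.8%, 72.0% and 71.4% lay at higher coordinates in Del8, against 67.6%, 68.4% and 65.3% in WT. The groups did not overlap (72.0% ± 0.71 in Del8 and 67.1% ± 1.59 in WT, two-sided exact permutation test, p = 0.10, which with 3 libraries a group is the lowest possible). Wilson 95% intervals, which cover counting error only, ran from 70.8% to 74.6% for the first Del8 library and from 64.0% to 70.9% for the first WT library. The difference of 4.95 percentage points was -0.05 under a looser screen that keeps the neighbouring bin of H2-Q10. The share of the bin's contacts within the chromosome that lay within 1 Mb was 67.7% ± 2.57 in Del8 and 63.8% ± 2.71 in WT and overlapped (exact permutation test, p = 0.20).

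At Sox2 the border beside the gene stood in the same place in both groups. The boundary lay in the bin 34600001 to 34650000, which ends 6 bases into the gene, and was called in 3 of 3 Del8 and 3 of 3 WT libraries. Its score was -0.40, -0.36 and -0.32 in Del8, against -0.33, -0.29 and -0.20 in WT, and the groups overlapped. The difference of -0.09 (SE 0.04) was just past the threshold (limma, adjusted p = 0.0493), and the call ended with a 250 kb square (-0.08, adjusted p = 0.229), with a screen at 0.25 (-0.03, adjusted p = 0.663) and without any 1 of WT replicates 2 and 3 or Del8 replicates 1 and 2 (adjusted p from 0.0656 to 0.184). In the Sox2 bin the score was -0.18, -0.19 and -0.16 in Del8, against -0.15, -0.12 and -0.07 in WT. The groups did not overlap but the difference of -0.06 did not pass (SE 0.03, limma, adjusted p = 0.085). Without WT replicates 1 and 2 together, which leaves 1 WT library, both bins were lower in Del8, by 0.16 and 0.11.

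The direct contacts of the Sox2 bin show the border plainly in every library. With the adjoining bin below, the Sox2 bin held 63, 65 and 34 contacts in Del8, against 35, 44 and 37 in WT. With the adjoining bin above it held 264, 182 and 150 in Del8, against 137, 129 and 147 in WT. Observed over expected contact with the bin below was 0.30, 0.46 and 0.29 in Del8, against 0.34, 0.44 and 0.31 in WT. No more than 5 of 1163 adjoining pairs of chromosome 3 were lower in any library. With the bin above it was 1.39 to 1.48 in Del8 and 1.45 to 1.47 in WT, higher than 91.4% or more of adjoining pairs. Neither pair differed between Del8 and WT past the threshold (log2 fold change -0.14, SE 0.21, and -0.10, SE 0.11, edgeR, adjusted p = 0.82 and 0.74). Over the 5 bins below, observed over expected contact was 0.401 ± 0.05 in Del8 and 0.410 ± 0.04 in WT. Over the 5 bins above it was 1.17 ± 0.05 in Del8 and 1.20 ± 0.03 in WT, and the groups overlapped on both sides.

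**Figure D4:**
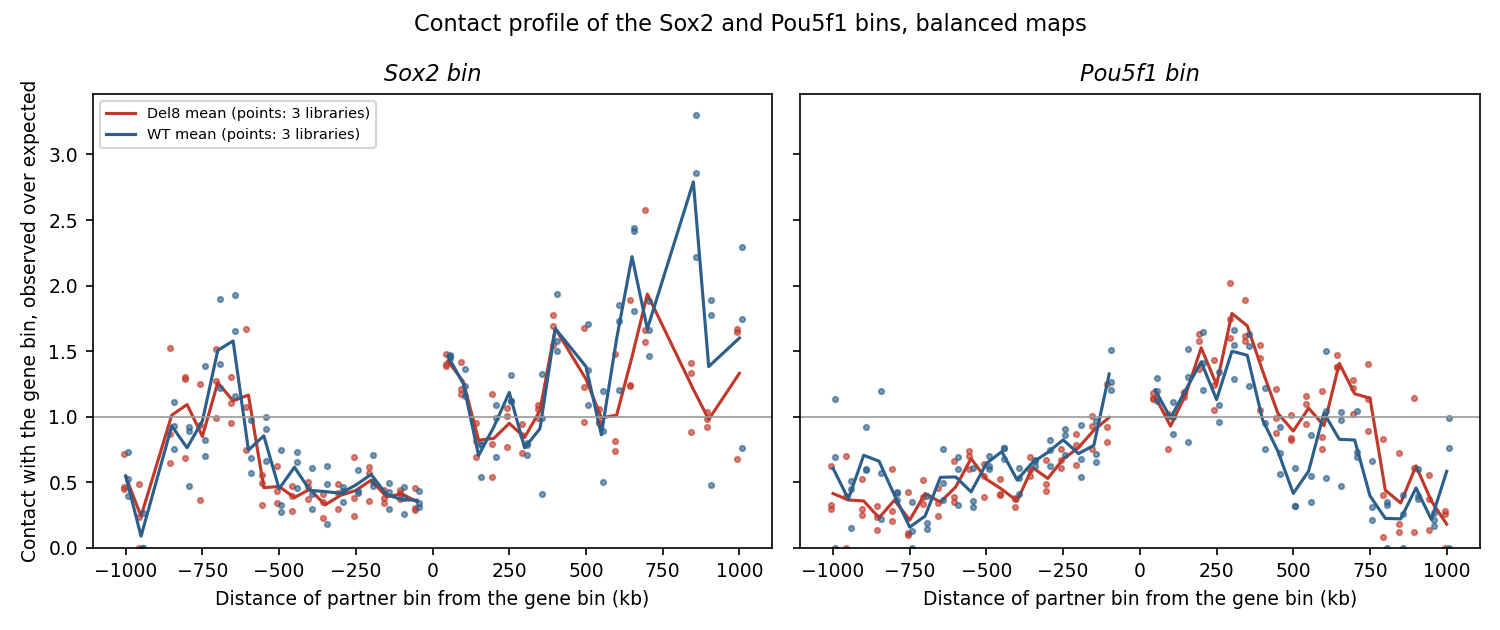
Observed over expected balanced contact of the Sox2 bin (left) and the Pou5f1 bin (right) with each bin within 1 Mb (vertical axis) against the distance of that bin (kb, horizontal axis). Points are libraries and lines the group means, Del8 in red and WT in blue, and contact with the 5 bins below Sox2 is low in both groups (0.401 in Del8, 0.410 in WT), while contact of Pou5f1 with the 6 bins above the WT dip averages 1.06 in Del8 and 0.715 in WT.

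Contact between Sox2 and its distal control region was at a similar level in both groups. The pair of the Sox2 bin and the bin 100 kb above it, 34750001 to 34800000, held 110, 74 and 77 contacts in Del8, against 55, 54 and 77 in WT. Observed over expected contact was 1.17, 1.21 and 1.42 in Del8, against 1.24, 1.16 and 1.36 in WT, and the libraries of the groups were interleaved. The means were 1.27 ± 0.13 in Del8 and 1.25 ± 0.10 in WT (two-sided exact permutation test, p = 0.90). The log2 fold change of the counts was -0.13 (SE 0.16, edgeR, adjusted p = 0.78), so a change of the size of this error was not detectable at this depth. In every library the pair was above 74.7% to 91.3% of 1130 pairs of chromosome 3 at the same distance. The scores of the control region bin were 0.12 ± 0.02 in Del8 and 0.15 ± 0.06 in WT, and did not differ past the threshold (-0.02, limma, adjusted p = 0.594).

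Because the gene begins 6 bases below a bin edge, counting 100 kb from its first base gives another pair, the bin 34600001 to 34650000 with the bin 34700001 to 34750000. This pair spans the border. Its observed over expected contact was 0.517, 0.638 and 0.603 in Del8, against 0.427, 0.517 and 0.449 in WT. The lowest Del8 library just exceeded the highest WT library (0.586 ± 0.06 in Del8 and 0.464 ± 0.05 in WT, exact permutation test, p = 0.10, the smallest possible). The count test did not call it (log2 fold change 0.29, edgeR, adjusted p = 0.60). The bin 34700001 to 34750000 scored 0.05 ± 0.02 in Del8 and 0.07 ± 0.05 in WT (limma, adjusted p = 0.533).

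Farther out, scores fell over long stretches on both sides of Sox2. Of the 33 scored bins 23 fell (69.7%), 4 rose (12.1%) and 6 did not pass, and the median difference was -0.15. Of all scored bins 30.4% fell and 32.5% rose. The falls formed a run of 13 bins from 34000001 to 34650000, by 0.09 to 0.25, and a run of 10 scored bins from 34850001 to 35400000, by 0.11 to 0.24. Between them lay 4 bins that did not pass: the Sox2 bin, both candidate control region bins and 34800001 to 34850000. The largest falls were at 34250001 to 34300000 (0.10 ± 0.06 in Del8, 0.35 ± 0.02 in WT), 35300001 to 35350000 (-0.06 ± 0.07 in Del8, 0.18 ± 0.02 in WT) and 34350001 to 34400000 (-0.01 ± 0.03 in Del8, 0.22 ± 0.03 in WT), none with a gene start. Their differences were -0.25, -0.24 and -0.23 (limma, adjusted p = 7.95e-05, 0.00014 and 6.15e-05). The count of falls was 5 with a screen at 0.25 and 7 with a 250 kb square.

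The rises near Sox2 lay at the edges of the window. The bins 35550001 to 35600000 and 35650001 to 35700000 rose by 0.31 and 0.32 (limma, adjusted p = 0.003 and 0.00113). They lie beside unusable bins and at a boundary that stood in a different bin in each group. The bin 35500001 to 35550000, the boundary of the summed map, was the minimum in 3 of 3 Del8 and 0 of 3 WT libraries (-0.50 ± 0.11 in Del8, -0.49 ± 0.14 in WT). The bin 35550001 to 35600000 was the minimum in 0 of 3 Del8 and 3 of 3 WT libraries (-0.28 ± 0.12 in Del8, -0.60 ± 0.16 in WT). Without WT replicates 1 and 2, which leaves 1 WT library, the first of these bins was lower in Del8 by 0.17. The difference at 35550001 was then 0.17 in the other direction. The call at 35550001 ended with a screen at 0.25 (0.15, limma, adjusted p = 0.185). At the other edge the boundary bin 33850001 to 33900000 scored 0.08, 0.08 and 0.04 in Del8, against -0.13, -0.11 and -0.17 in WT, a rise of 0.20 (SE 0.03, limma, adjusted p = 0.000108), which did not pass with a 1 Mb square (0.04, adjusted p = 0.254) or a screen at 0.25 (0.43, adjusted p = 0.0801).

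Among 402 tested pairs of the Sox2 window 0 rose and 1 fell (0.249%) in Del8 (edgeR, adjusted p under 0.05). Of all tested pairs in the genome 0.905% rose and 0.826% fell. DESeq2 called 0 in the window. At an unadjusted p under 0.05 (edgeR) 8 rose and 35 fell, a cut at which no share of the genome was taken. The called fall was 1 of 23 tested of 35 usable pairs with the Sox2 bin. It joined the Sox2 bin with 35500001 to 35550000, 850 kb above, at 12, 13 and 11 contacts in Del8, against 18, 12 and 20 in WT. The raw counts overlapped although the Del8 libraries were deeper, and observed over expected contact was 0.88, 1.41 and 1.33 in Del8, against 3.30, 2.22 and 2.86 in WT (log2 fold change -1.30, SE 0.37, edgeR, adjusted p = 0.0431). The pair did not pass when any 1 library was left out (adjusted p from 0.0536 to 0.227). Over the 7 usable bins from 35200001 to 35700000, contact with Sox2 was 1.26 ± 0.10 in Del8 and 1.67 ± 0.12 in WT and did not overlap, a block chosen after the profile had been seen. The Sox2 bin had 68.9% ± 0.60 of its contacts within 1 Mb in Del8 and 71.4% ± 3.03 in WT (exact permutation test, p = 0.30). Of these 68.3% ± 1.90 in Del8 and 68.5% ± 1.65 in WT lay at higher coordinates (exact permutation test, p = 0.80), and both shares overlapped between the groups.

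Genes beside the loci were read from the bin of their start, so genes of 1 bin share a value. Near Sox2, 4 protein-coding genes start, and the 2 with a score both fell: Fxr1, an RNA-binding paralogue of the fragile X protein, by 0.13, and Dnajc19, of the mitochondrial import motor, by 0.18 (limma, adjusted p = 0.027 and 0.000336). Near Pou5f1, 105 of 106 genes had a score, of which 39 rose (37.1%), 7 fell (6.67%) and 59 did not pass, against 32.5% and 30.4% of all scored bins that rose and fell. They shared 34 bins, of which 12 rose, 4 fell and 18 did not pass. The genes of the complement and tumour necrosis factor clusters below Pou5f1 were mixed: Cfb and C2 rose by 0.13, while Tnf and Ltb were at -0.00023 and C4b at 0.05 and did not pass.

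Other genes of the pluripotency network stand elsewhere in the genome. Of 33 listed, 27 had a score, of which 15 rose, 2 fell and 10 did not pass, with a median difference of 0.10, against 32.5% and 30.4% of all scored bins that rose and fell and a median of 0.0017. Dppa3, a maternal factor of naive cells, and Gdf3, a growth factor of the same bin, rose by 0.60 and Tcf7l1, a repressor of the Wnt pathway, by 0.53. Utf1 rose by 0.39, Nanog, a partner of Sox2 and Oct4, by 0.29 and Sall4 by 0.27. Those that fell were Sox15, a relative of Sox2, by 0.14 and Foxd3, a forkhead factor, by 0.11. Esrrb, an orphan nuclear receptor, and Klf4 differed by -0.02 and 0.06 and did not pass (limma, adjusted p = 0.504 and 0.128).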

How the data were processed

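As deposited, each library's table held raw contact counts between 50 kb bins of the same chromosome. Positions refer to mm10, the build in the submitters' processing notes, and no aligner or read filter is named in the labels. Libraries were grouped by title, 3 Del8 and 3 WT. Chi-square per degree of freedom was 1.81 or more for every library pair, above sampling noise if each contact was counted singly. Overcounting of within-bin contacts, which their even counts allow, would raise it. Bins were kept if their coverage, scaled to the 80th percentile of the library, was in every library 0.5 or more of the third highest value and above 0.1. Each chromosome's map was balanced by iterative correction, leaving out the diagonal. The insulation score used a 500 kb square with 50% or more of its pairs usable, and boundaries were minima of prominence 0.2 or more on the map summed over libraries. Scores were tested with limma 3.58.1 and pair counts of a mean of 10 or more with edgeR 4.0.16 (quasi-likelihood, offsets for chromosome and distance), each over all autosomal bins or pairs with Benjamini-Hochberg adjustment at 0.05. The SE of an edgeR log2 fold change was taken from its F statistic. Single values used a two-sided exact permutation test. Scripts were tested on simulated data.

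The genes, lists, windows and tests were chosen with earlier results of these data known. Named bins were those of the genes and the control region, the boundaries on the summed map and the 3 largest rises and falls past the threshold. Named pairs were those of the gene bins past the threshold and the 3 largest others; the remaining bins, pairs and list genes named were chosen after their values were seen. The planned rule placed the control region in the bin that holds the position 100 kb above the gene's first base, 34700001 to 34750000. Since that base lies 6 bases below a bin edge, the bin 100 kb above the Sox2 bin was used instead, and both are given. Alternatives were other squares (250 kb, 1 Mb), screens, centring, offsets, count filters, DESeq2 1.42.0, a replicate block and left-out libraries. Promoter sequences came from the RefSeq table of GRCm38.p6.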

Additional observations from a re-analysis of the deposited data

How the results depend on the processing

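The 14 rises of insulation score near Pou5f1 stayed between 13 and 16 under all alternatives run with more than 1 WT library. The falls there numbered 5, against 13 with a 1 Mb square and 0 with a screen at 0.25. With 1 library left out they numbered 3 to 10. Near Sox2 the 23 falls were 7 with a 250 kb square and 5 with a screen at 0.25. With 1 library left out they were 20 to 23. The 4 rises were 1 with a 250 kb square. Over the genome that square gave 5276 rises and 4687 falls of 22682 bins. The 18 pairs that rose near Pou5f1 were 10 with balancing weights in the offsets, 1 with DESeq2 and 0 with a looser screen. They were 4 to 14 with 1 library left out. Without WT replicates 1 and 2 together 1 WT library is left, so no counts are given. TMM factors gave 1 risen pair with the Pou5f1 bin, against 0. The 1 fallen pair near Sox2 was 0 to 1 with 1 library left out. It was 0 with TMM factors, DESeq2, no filter, a looser screen and the replicate block. That with the Sox2 bin itself was 0 there and with a mean count of 20 or more, and 0 with 1 library left out.

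The looser screen, 20 or more contacts per bin, gave no insulation score or balanced value, because the maps of WT replicates 1 and 2 could not be balanced; the screen at 0.25 (31150 bins) was chosen after seeing the data in its place, and over the genome it gave 6209 rises and 3242 falls of 27001 bins. The cause of these changes was not tested.

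Small differences changed sign. The control region pair, at 0.016 in observed over expected contact, was -0.10 on raw counts, -0.094 without WT replicates 1 and 2 together and -0.060 to 0.071 with 1 library left out. The higher-coordinate share of Sox2 was -1.33 to 0.691 percentage points with 1 library left out, and that of Pou5f1 -0.047 with the looser screen. The share within 1 Mb of Sox2 was 0.191 without WT replicates 1 and 2 together. The pair 34600001 with 34700001 was -0.00014 with the looser screen. With a 1 Mb square the bins at 34900001, 35250001 and 36250001 near Pou5f1 were -0.061, -0.051 and 0.078, and 35500001 near Sox2 0.062. With a 250 kb square 34650001, 34700001 and 34750001 were 0.0044, 0.031 and 0.041. With a screen at 0.25 the bins 34700001, 34750001 and 35500001 near Sox2 were 0.020, 0.028 and 0.079. With 1 library left out they ranged from -0.042 to 0.0056, from -0.050 to 0.011 and from -0.062 to 0.076.

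Deviations from the group mean were nearly uncorrelated between same-numbered libraries (correlations -0.020, -0.019 and -0.067). Whether same-numbered libraries share a batch was not tested further. The replicate block left the Pou5f1 bin at 0.27 (adjusted p = 5.22e-05), gave 15 rises and 6 falls near Pou5f1 and 3 rises and 23 falls near Sox2, and gave 14 risen pairs near Pou5f1 and 0 fallen ones near Sox2. In 236 refits of single named bins 195 kept their call and direction, and in 81 of single named pairs 50 did.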
